A study of Mus musculus with 9 samples.

Results

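The core and linker histone genes were followed in N1E-115 cells, a mouse neuroblastoma line that puts out neurites, on 9 Affymetrix whole-transcript arrays. A probe set, the group of array probes summarised to 1 value, was taken as a histone probe set when at least 1 symbol of its annotation named an H1, H2A, H2B, H3 or H4 gene by current nomenclature, or H2ax. This gave 78 of the 41345 probe sets, which carry the symbols of 72 histone genes. By family they were 9 for the linker histone H1, 21 for H2A, 16 for H2B, 19 for H3 and 12 for H4, and 1 more was annotated to H1f4 together with 3 H2B genes. All cells received 80 nM siRNA, were starved of serum overnight in Neurobasal medium and were replated on laminin. Control siRNA was sampled at 4 h and again at 24 h, and hmgn5 siRNA, a Dharmacon pool against Hmgn5, at 24 h, with 3 arrays for each of these groups. An hmgn5 siRNA group at 4 h was not analysed here, so the siRNA comparison exists at 24 h and the time comparison in control cells. Hmgn5 encodes a nucleosome-binding protein that acts on chromatin compaction and opposes binding of linker histones, and the series concerns its part in neurite outgrowth.

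Core histones H2A, H2B, H3 and H4 form the protein spool around which DNA is wound, and H1 binds the DNA that links one spool to the next. Most core and linker histone genes lie in clusters of near-identical copies, are transcribed mainly in S phase when DNA is copied, and give mRNAs that end in a stem-loop rather than a poly(A) tail. Replication-independent variants such as H3.3 (H3f3a, H3f3b), H2A.Z (H2az1, H2az2) and H1.10 (H1f10) are made throughout the cell cycle and supply cells that no longer divide. Sorted by symbol alone, 61 of the probe sets were counted as replication-dependent, 12 as replication-independent variants and 5 as histones of germ cells. H2bc21 was counted as replication-dependent by its symbol only. The amplification kit is named in the labels but its priming is not, so the sources used here do not say how mRNAs without a poly(A) tail are captured.

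Promoters of the clustered genes share short motifs, and the stretches just before the start of transcription are shown for some genes named in the results. H2bc8 and H2bc6 share the probe set with the largest difference, H2bc18 is a second H2B gene, H1f5 a clustered linker histone gene, and H1f10 and H3f3b are replication-independent genes. Differences of H2bc18, H1f5 and H3f3b did not pass the adjusted p threshold of 0.05 given below. Each line gives 150 bases upstream of the start, 5′ to 3′ on the gene's strand, from RefSeq (GRCm38.p6). Capitals mark a CCAAT box, the TATA box TATAAA, the octamer ATTTGCAT or the H1 box AAACACA, on either strand. H2bc6 is listed with 2 starts.
H2bc8, chr13:23571250-23571399, plus strand: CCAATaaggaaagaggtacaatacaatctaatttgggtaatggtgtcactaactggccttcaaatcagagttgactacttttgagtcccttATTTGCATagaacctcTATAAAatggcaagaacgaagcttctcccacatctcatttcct
H2bc6, first listed start, chr13:23621095-23621244, minus strand: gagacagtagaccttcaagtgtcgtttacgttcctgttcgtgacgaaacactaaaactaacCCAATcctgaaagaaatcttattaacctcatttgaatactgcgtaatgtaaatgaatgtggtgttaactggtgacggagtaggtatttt
H2bc6, other listed start, chr13:23585971-23586120, minus strand: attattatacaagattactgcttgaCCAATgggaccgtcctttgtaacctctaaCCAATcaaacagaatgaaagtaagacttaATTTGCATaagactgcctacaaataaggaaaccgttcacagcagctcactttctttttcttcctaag
H2bc18, chr3:96269550-96269699, plus strand: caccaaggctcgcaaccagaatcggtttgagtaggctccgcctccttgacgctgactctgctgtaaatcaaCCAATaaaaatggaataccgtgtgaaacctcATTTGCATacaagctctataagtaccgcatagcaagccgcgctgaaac
H1f5, chr13:21780626-21780775, minus strand: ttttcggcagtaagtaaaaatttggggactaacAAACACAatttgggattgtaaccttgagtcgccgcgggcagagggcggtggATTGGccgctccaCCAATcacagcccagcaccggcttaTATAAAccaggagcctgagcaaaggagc
H1f10, chr6:87981483-87981632, minus strand: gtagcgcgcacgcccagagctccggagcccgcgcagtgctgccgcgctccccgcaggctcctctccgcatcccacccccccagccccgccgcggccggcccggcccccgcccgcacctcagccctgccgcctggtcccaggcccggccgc
H3f3b, chr11:116024505-116024654, minus strand: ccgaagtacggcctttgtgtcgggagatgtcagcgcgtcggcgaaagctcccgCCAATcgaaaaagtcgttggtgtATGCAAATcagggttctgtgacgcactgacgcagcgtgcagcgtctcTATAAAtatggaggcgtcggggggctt
The H2B promoters carried CCAAT, and 3 of the 4 H2B stretches shown also carried the octamer. None of the 4 motifs was found in the H1f10 stretch, which says only that these letters are not in this window. Marked matches did not overlap. Over 250 bases upstream, 66 of the 72 histone symbols were matched in the promoter table used here. H2ax, H2bc21, H2bc4, H3c1, H3c7 and H4c14 were not matched and were not searched. CCAAT was found in 80.6% of the 67 histone entries and in 33.8% of all 32851 promoters. The octamer was found in 20.9% against 1.6%, TATAAA in 43.3% against 12.4% and AAACACA in 14.9% against 6.25%. By family, CCAAT was found in all 14 entries of replication-dependent H2B genes, all 16 of H2A and all 5 of H1, but in 3 of 11 of H4. The octamer was found in 6 of the 14 H2B entries and 5 of the 16 H2A entries, and in none of the replication-dependent H1, H3 and H4 entries. AAACACA was found in 4 of the 5 replication-dependent H1 entries.

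Values are log2 expression, and a gene was called at an adjusted p under 0.05 from limma with Benjamini-Hochberg adjustment over all 41345 probe sets. Pearson's r between arrays was 0.978 to 0.995. Control 4 h replicate 2 stood apart: without it the lowest r was 0.991, and its array weight was 0.247 where the others had 0.853 to 1.61. Hmgn5 was 4.77, 4.66 and 4.69 in control cells at 24 h and 3.53, 3.45 and 3.50 with hmgn5 siRNA. It fell by 1.21 on the log2 scale (SE 0.09, limma adjusted p = 0.0400), which leaves 43.1% of the signal, and the exact two-sided permutation p of 0.1 is the smallest that 3 arrays against 3 can give. This call was lost in the fits without any 1 array other than control 4 h replicate 2, with adjusted p up to 0.463 and differences of -1.24 to -1.18. Of 13 measured sympathetic neuroblastoma markers, 11 lay above the table's median level, against 2 of 8 for glia, 5 of 9 for fibroblasts, 1 of 8 for leukocytes, 3 of 8 for endothelium and the 1 measured erythroid gene. No list of another cell type had a called gene in any comparison. Whether replicates were separate cultures is not given in the labels, and the p-values therefore reflect only how far these samples differ among themselves, which may be technical spread.

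Between 4 h and 24 h in control cells, 2 histone probe sets fell and none rose. One measures the H2B genes H2bc4, H2bc8 and H2bc6 and fell 3.50-fold, and the other measures the linker histone gene H1f10 and fell 1.38-fold. Over the whole table, 0.670% of probe sets were called lower and 0.561% higher, and 1.99% were called lower when only probe sets with a gene symbol were tested, a fit in which 6 of the histone probe sets passed. At an unadjusted p under 0.05, 9 of the 78 passed, 1 higher and 8 lower, against 14.3% of all probe sets. In 63 of the 78 the difference was within 0.2 in either direction, and the median difference was -0.03, against -0.00 for all probe sets. Differences were below 0 in 53 and above 0 in 25, but this split was 39 and 39 when each array was centred on its median. In RNA from whole cultures, fewer cells expressing a gene and less of its RNA per cell cannot be told apart.

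H2bc4, H2bc8 and H2bc6 encode replication-dependent H2B proteins and share probe set 17285851. It read 7.58, 7.73 and 7.74 on the control 4 h arrays. At 24 h it read 5.68, 5.79 and 6.16 with control siRNA and 6.34, 5.86 and 6.40 with hmgn5 siRNA. Every 4 h array lay above every 24 h array. The difference over time was -1.81 (SE 0.17, 95% interval -2.19 to -1.42, limma adjusted p = 0.00482). It was called in all 18 alternative fits, with differences of -1.95 to -1.71 and adjusted p of 0.000754 to 0.0473.

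Other probe sets that carry the same 3 symbols moved less. Probe set 17285834, annotated to H2bc8, H2bc6 and H2bc4, read 5.35, 5.36 and 5.97 at 4 h, 5.12, 5.12 and 4.61 in control cells at 24 h, and 5.12, 5.05 and 5.02 with hmgn5 siRNA. Its 4 h and 24 h control arrays did not overlap, but the difference of -0.61 (SE 0.19) did not pass (limma adjusted p = 0.195). Probe set 17291195, annotated to H1f4 and the same 3 H2B genes, differed by -0.12. Probe set 17285691, annotated to H2bc6 and 11 other genes, differed by 0.01. Probe sets 17285710 and 17291014, which carry the same 12 symbols as 17285691 and hold identical values, differed by -0.14. Which transcripts of these near-identical genes each probe set reads cannot be separated in these values, so the fall is that of 1 probe set and not of 3 genes measured apart.

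H1f10 encodes H1.10, a linker histone made throughout the cell cycle. Its own probe set read 9.62, 9.66 and 9.64 at 4 h, 9.18, 9.11 and 9.24 in control cells at 24 h, and 9.26, 9.21 and 9.42 with hmgn5 siRNA. All 3 arrays of 4 h lay above all 6 of 24 h. The difference over time was -0.46 (SE 0.07, 95% interval -0.62 to -0.30, limma adjusted p = 0.0293). The call was kept in 7 of 18 alternative fits, with adjusted p of 0.00937 to 0.118 and differences of -0.49 to -0.42, and it was lost in the fits without any 1 array other than control 4 h replicate 2 or hmgn5 siRNA replicate 3. A second probe set, annotated to Gm5577 and H1f10, read 6.04 to 6.08 on all control arrays and differed by -0.01.

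**Figure D1:**
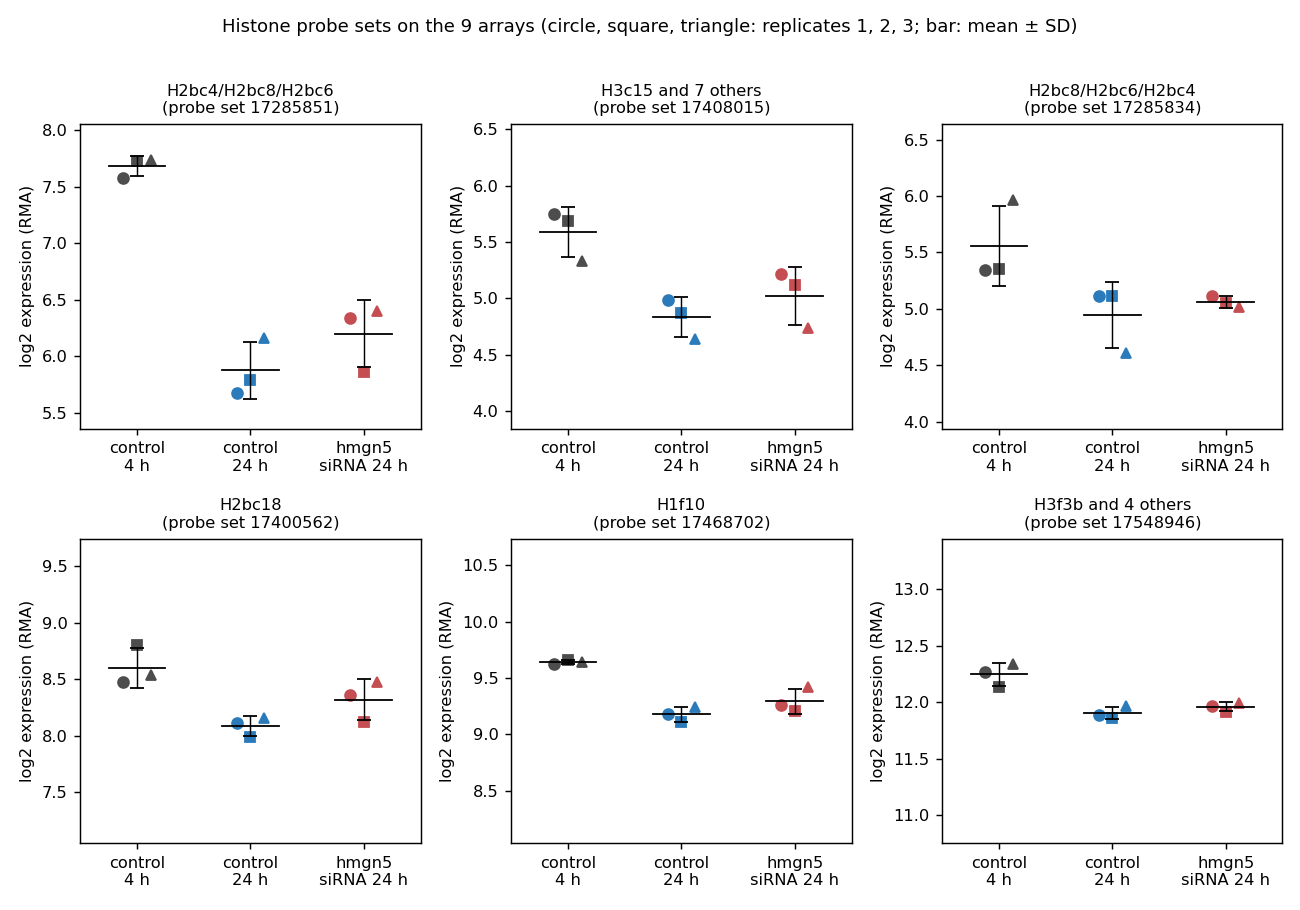
Log2 expression of 6 histone probe sets on each of the 9 arrays, by group, with the mean and SD of 3 arrays; the panels share 1 span of log2 units around their own midpoint. The H2bc4/H2bc8/H2bc6 probe set sits between 7.58 and 7.74 at 4 h and between 5.68 and 6.40 on the 6 arrays of 24 h, while H1f10 goes from 9.62 to 9.66 down to 9.11 to 9.42.

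In all, 9 histone probe sets had every control 24 h array below every control 4 h array and 0 had every one above, against 9.81% and 8.33% of all probe sets. Of these 9, 7 were not called. H2bc18, a replication-dependent H2B gene with its own probe set, read 8.47, 8.81 and 8.53 at 4 h, 8.11, 7.99 and 8.15 in control cells at 24 h, and 8.36, 8.12 and 8.47 with hmgn5 siRNA. Its difference over time was -0.52 (limma adjusted p = 0.0865). Probe set 17408015, shared by H3c15 and 7 other genes of replication-dependent H3, read 5.75, 5.68 and 5.33, then 4.99, 4.88 and 4.64, and with hmgn5 siRNA 5.22, 5.12 and 4.74. Its difference over time was -0.75 (SE 0.16, limma adjusted p = 0.0725), and the 6 arrays of 24 h all lay below those of 4 h. It passed in 2 of 18 alternative fits, 1 of them with the replicate number as a block (adjusted p = 0.0211), over a range of adjusted p from 0.0211 to 0.216. The other probe sets with the same 8 symbols differed by -0.05 (17400555), -0.05, -0.13, -0.13, 0.08, 0.15 and 0.21. The 0.21 belonged to 17285842, the 1 histone probe set higher over time at a limma unadjusted p under 0.05 (limma adjusted p = 0.305).

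H3.3, the replication-independent H3, was read by 7 probe sets, 5 of them annotated to H3f3b or H3f3a together with 4 other symbols. The lowest adjusted p over time belonged to 17548946, which read 12.27, 12.13 and 12.34 at 4 h, 11.89, 11.86 and 11.97 in control cells at 24 h, and 11.96, 11.92 and 11.996 with hmgn5 siRNA. Its difference was -0.34 (SE 0.07, limma adjusted p = 0.0607), and it passed in 6 of 18 alternative fits. Another H3f3b probe set, 17548283, differed by -0.30 (limma adjusted p = 0.0779), and the remaining 3 of that kind differed by -0.16, -0.08 and 0.05. The probe sets annotated to H3f3a and Gm12657 alone differed by -0.02 and -0.10. The H3.3 probe sets thus differed in size among themselves over time, with a median of -0.10, and none was called.

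The replication-independent H2A variants gave no call over time. H2az2 read 8.91, 9.13 and 8.87 at 4 h, 9.11, 9.14 and 9.14 in control cells at 24 h, and 9.05, 9.12 and 9.27 with hmgn5 siRNA, a difference over time of 0.16. H2ax, whose product is phosphorylated at DNA breaks, read 8.57, 8.71 and 8.60 at 4 h and 8.48, 8.49 and 8.89 at 24 h, a difference of -0.01. The control groups overlapped for both.

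H1f5, a clustered linker histone gene, gave the highest difference over time of the 78, at 0.28 (limma adjusted p = 0.642). It read 8.09, 7.84 and 7.86 at 4 h, 8.29, 7.86 and 8.47 in control cells at 24 h, and 8.05, 8.08 and 8.84 with hmgn5 siRNA. The groups overlapped, and on both 24 h groups the array numbered 3 was the highest. H1f8, an oocyte linker histone, read 4.41, 4.46 and 4.66 at 4 h and 4.84, 4.67 and 4.58 at 24 h, a difference of 0.19 that was not called.

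By family the median difference over time was 0.03 for H1, -0.01 for H2A, -0.09 for H2B, -0.05 for H3 and -0.08 for H4. Differences lay below 0 for 10 of the 12 H4 probe sets, or 9 after centring each array on its median, and the H4 values ran from -0.22 to 0.01 with none called. For H2A, 14 of 21 lay below 0, but 7 of 21 did so after that centring. The 12 replication-independent probe sets had a median of -0.07 with 10 below 0, or 7 after centring, and the 5 germ cell ones a median of 0.11. Of the H2A probe sets, 17285677, annotated to H2ac23 and 9 other genes, differed by -0.33 and was not called. The other probe sets with the same 10 symbols differed by 0.26, 0.04, -0.01, -0.01, -0.10 and -0.22.

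**Figure D2:**
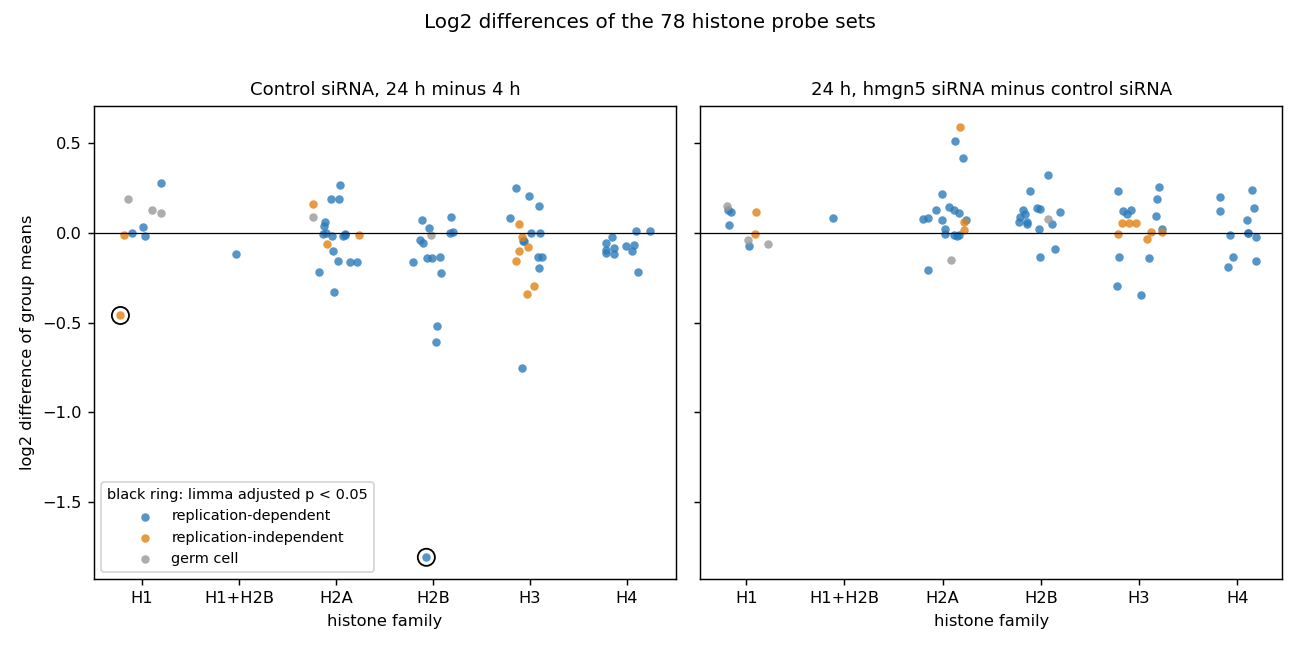
Difference of group means in log2 units for each of the 78 histone probe sets, by family, over time in control cells (left) and for hmgn5 siRNA against control siRNA at 24 h (right); black rings mark limma adjusted p under 0.05. Rings mark only H1f10 at -0.46 and the H2bc4/H2bc8/H2bc6 probe set at -1.81 over time, and no ring is drawn for the siRNA comparison, where values run from -0.35 to 0.59.

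With hmgn5 siRNA at 24 h no histone probe set was called higher or lower than with control siRNA. Across the table, 0.00% were called higher and 0.00242% lower, the latter being Hmgn5 alone. At an unadjusted p under 0.05 in limma, 3 of the 78 passed, 2 higher and 1 lower, against 4.43% of all probe sets, and the smallest adjusted p was 0.829. None was called in any of the 18 alternative fits. The median difference was 0.06, 53 lay above 0 and 25 below, and 66 were within 0.2. Over all 41345 probe sets the median was -0.001, with 20486 above 0 and 20853 below. Among the histone probe sets, groups did not overlap for 2 higher and 1 lower, against 5.50% and 4.95% of all probe sets.

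The 95% intervals show what size these arrays leave room for. For the H2bc4/H2bc8/H2bc6 probe set the siRNA difference was 0.32 with an interval of -0.06 to 0.71, and for H1f10 it was 0.11 with -0.05 to 0.28. The largest difference of the 78 was that of H2az1, which encodes the variant H2A.Z found at promoters. H2az1 read 4.40, 4.29 and 4.36 at 4 h, 4.31, 4.02 and 4.53 in control cells at 24 h, and 4.35, 5.03 and 5.23 with hmgn5 siRNA. The first hmgn5 siRNA array lay within the control range and the other 2 above it, with a difference of 0.59 (SE 0.22, 95% interval 0.09 to 1.09, limma unadjusted p = 0.0266). This probe set lies below the table's median level, and after adjustment it was far from passing. H2az2, which encodes a nearly identical protein, differed by 0.02.

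H3 and H4 gave the other differences with a small unadjusted p. Probe set 17285842, annotated to H3c13 and 7 other genes, read 3.57, 3.40 and 3.47 at 4 h, 3.52, 3.79 and 3.74 in control cells at 24 h, and 3.33, 3.35 and 3.32 with hmgn5 siRNA. Its hmgn5 siRNA arrays all lay below the control arrays, with a difference of -0.35 (SE 0.08, limma adjusted p = 0.829). The other probe sets with the same 8 symbols differed by -0.14, 0.02, 0.10, 0.11, 0.13, 0.19 and 0.23. H4c14 read 6.36, 6.11 and 6.34, then 6.17, 6.22 and 6.34, and 6.53, 6.59 and 6.34 with hmgn5 siRNA, a difference of 0.24 that was not called.

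Among the H2A and H1 probe sets, H2ac15 read 5.93, 6.02 and 6.29 at 4 h, 6.40, 5.98 and 6.42 in control cells at 24 h, and 6.50, 6.29 and 7.27 with hmgn5 siRNA. The siRNA difference was 0.42, and the third hmgn5 siRNA array lay above the other 8. Probe set 17285867, annotated to H2ac4 and 9 other genes, had a difference of 0.51, from 3.38, 3.07 and 3.83 to 3.99, 3.49 and 4.32. Neither H2ac15 nor 17285867 was called. The other probe sets with the same 10 symbols as 17285867 differed by 0.14, 0.11, 0.08, -0.01, -0.01 and -0.21. H1f6, a testis linker histone, differed by 0.15 and H1f1 by -0.07. By family the median siRNA difference was 0.04 for H1, 0.07 for H2A, 0.08 for H2B, 0.05 for H3 and -0.00 for H4, the last turning to 0.01 after centring or cyclic loess. H2B had 14 of 16 above 0, also under both of those scalings. The 7 H3.3 probe sets had a median of 0.01, which was -0.00 after cyclic loess.

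Among the brighter replication-dependent probe sets, the array numbered 3 was often the highest of its 24 h group. All replication-dependent probe sets were divided at the table's median level of 5.20 into 30 above and 31 below. This split was chosen after the values were seen, sorts probe sets by signal and does not compare gene abundance. Among the 30, hmgn5 siRNA replicate 3 was the highest of all 9 arrays in 17, or 56.7%, against 11.3% of all probe sets above the median and 10.4% of the whole table. Counting probe sets with the same values once gave 16 of 27, or 59.3%. Among the 31 dimmer ones it was highest in 3, or 9.68%. Within its own group hmgn5 siRNA replicate 3 was the highest in 24 of the 30 and in 10 of the 31 dimmer ones. Control 24 h replicate 3 was the highest of its group in 26 of the 30 and in 7 of the 31. Of all 20672 probe sets above the median, these counts were 6259 for hmgn5 siRNA replicate 3 and 6155 for control 24 h replicate 3.

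The single genes given here were chosen after their values were seen. Of the 14 brighter replication-dependent probe sets with 1 symbol, hmgn5 siRNA replicate 3 was the highest of the 9 arrays in 9. It was the highest of its own group in 11, and control 24 h replicate 3 was the highest of its group in 12. H2bc12 read 7.37, 6.89 and 8.20 with hmgn5 siRNA and 7.12, 7.37 and 7.65 with control siRNA at 24 h. H2bc3 read 7.98, 7.99 and 8.69 against 7.95, 8.09 and 8.24, and H2ac10 read 10.08, 10.04 and 10.71 against 9.98, 9.92 and 10.28. In these 3 genes the third array was the highest of both groups, and the siRNA differences of 0.11, 0.13 and 0.22 were smaller than the gap between the arrays of 1 group. H4c12 likewise read 11.67, 11.85 and 12.10 against 11.72, 11.66 and 11.87, while H2ac21 read 8.75, 8.61 and 8.73 against 8.77, 8.62 and 8.76. H2ax, which is made both in and outside S phase, also had its highest values on the arrays numbered 3, at 9.10 with hmgn5 siRNA and 8.89 with control siRNA.

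**Figure D3:**
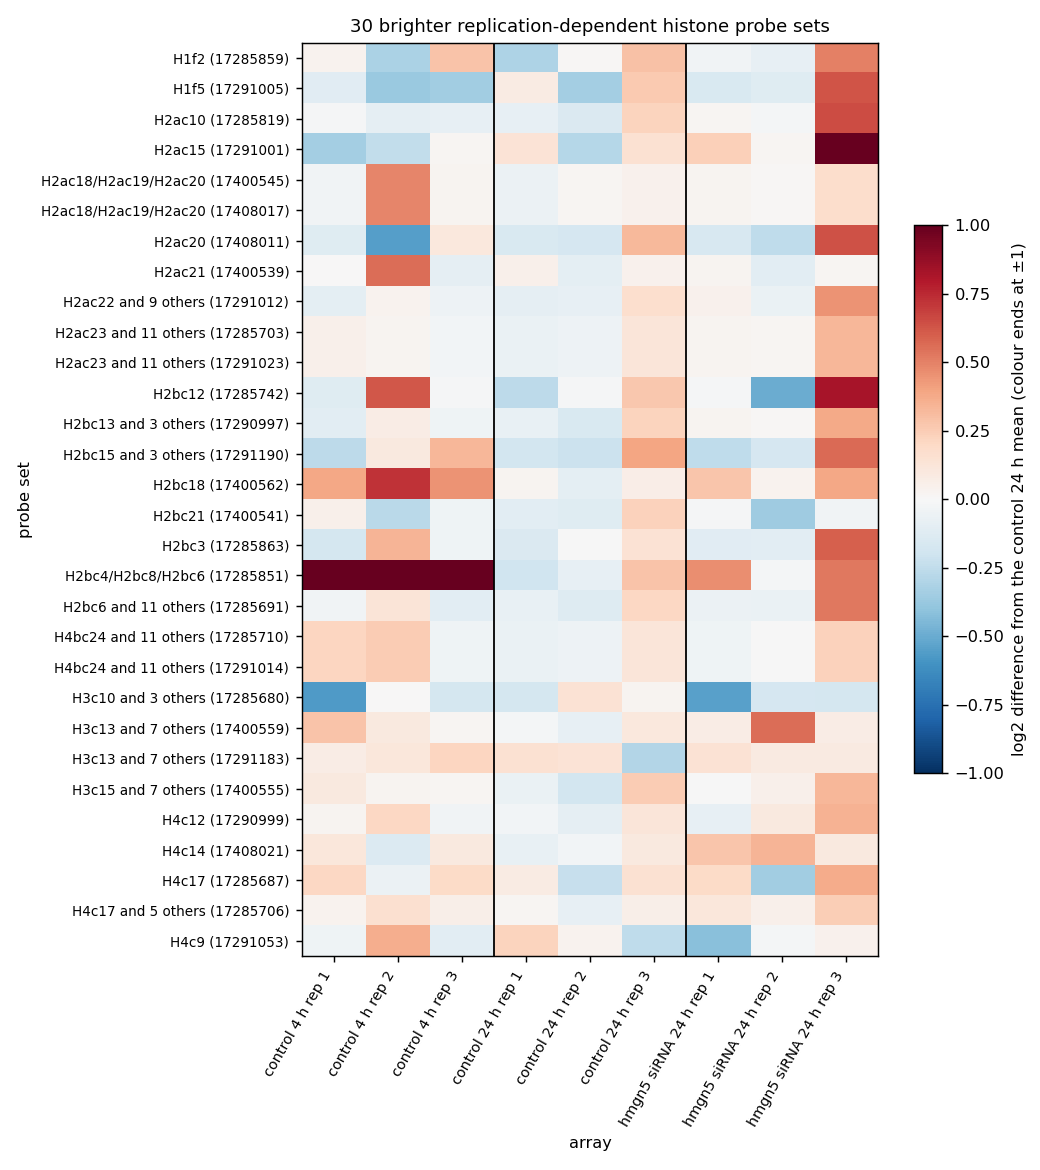
Log2 difference from the control 24 h mean for the 30 replication-dependent histone probe sets above the table's median (rows) on each array (columns, vertical lines between groups); colour ends at 1 in either direction. The last column, hmgn5 siRNA replicate 3, is the highest of the 9 arrays in 17 rows, and the dark cells at 4 h belong to the H2bc4/H2bc8/H2bc6 probe set.

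As a median over the 30 brighter probe sets, hmgn5 siRNA arrays lay 0.02, -0.01 and 0.34 above the control 24 h mean, and control 24 h arrays lay at -0.07, -0.08 and 0.13. Their median siRNA difference was 0.12, with 26 of 30 above 0, against 0.01 for all probe sets above the table's median. Without hmgn5 siRNA replicate 3 it was -0.01 with 15 of 30 above 0. Without control 24 h replicate 3 it was 0.21, and without both arrays 0.04 with 20 of 30 above 0. The size of this median thus depended on which of these arrays entered the comparison. Over time the same 30 had a median of -0.05, with 21 below 0, or 17 after centring each array.

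The genes of DNA synthesis were also highest on hmgn5 siRNA replicate 3. In a list of 28 measured S phase genes, such as the Mcm helicase subunits, Pcna and the ribonucleotide reductase subunits, that array was the highest of 9 in 23, or 82.1%. Their median on the hmgn5 siRNA arrays was 0.06, 0.07 and 0.38, and on the control arrays -0.06, -0.32 and -0.12 at 4 h and -0.01, -0.03 and 0.03 at 24 h. Their median siRNA difference was 0.18 with 27 of 28 above 0, and without both arrays numbered 3 it was 0.08 with 23 above 0. Of all 20672 probe sets above the table's median, 11187 had a siRNA difference above 0. Groups did not overlap in 10 of the 28, all higher with hmgn5 siRNA, against 5.50% of all probe sets. Cdc6 was 6.82, 6.77 and 7.41 against 6.62 on each control 24 h array. None of the 28 was called, and 6 had an unadjusted p under 0.05 in limma, against 4.43% of all probe sets. The replication-independent histones above the median had 0.02, 0.01 and 0.07 with hmgn5 siRNA, and the dimmer replication-dependent ones stayed between -0.03 and 0.05 on all 9 arrays. Hmgn5 siRNA replicate 3 had the second lowest array weight, 0.853. Neither the S phase genes' part in the histone values of this array nor that of the array itself was tested. No gene of the S phase list was called in the other comparisons either, and over time its median was 0.18 with 21 of 28 above 0, or 0.10 with 20 without control 4 h replicate 2, while that of the 30 histone probe sets was -0.05.

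**Figure D4:**
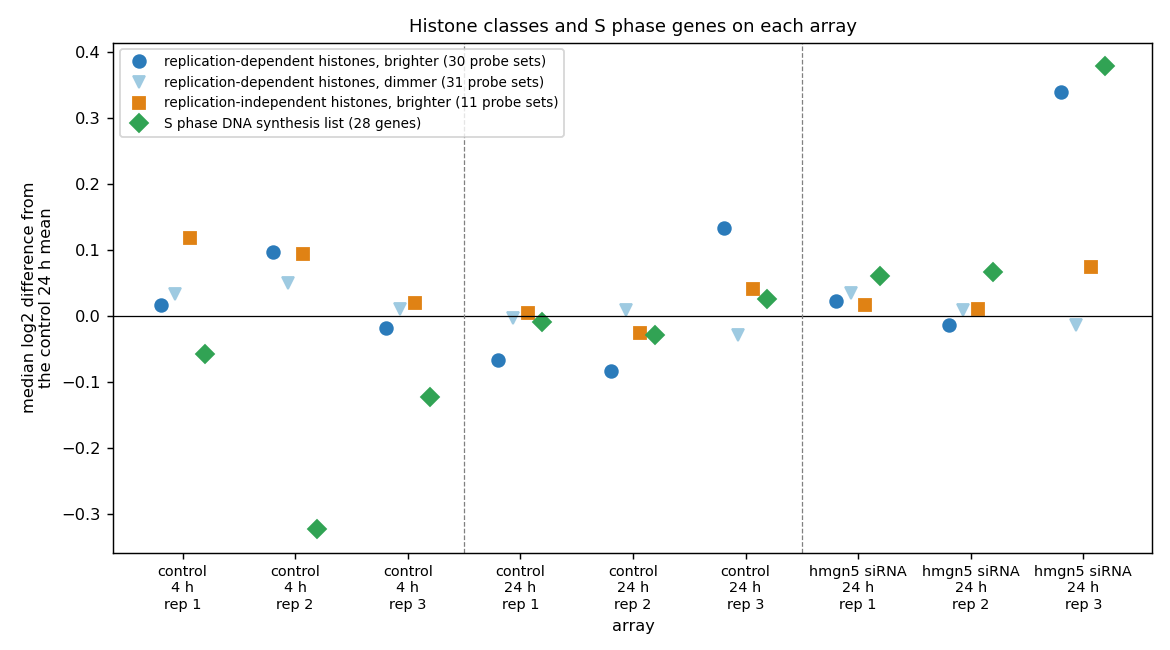
Median log2 difference from the control 24 h mean on each array for replication-dependent histones above and below the table's median, replication-independent histones above it, and the S phase list. On hmgn5 siRNA replicate 3 the brighter replication-dependent histones reach 0.34 and the S phase genes 0.38, while at 4 h the S phase genes lie between -0.32 and -0.06 and these histones between -0.02 and 0.10.

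Hmgn5 siRNA at 24 h was also set beside control siRNA at 4 h, where siRNA and time differ together and the arrays are shared with the comparisons above. Only the H2bc4/H2bc8/H2bc6 probe set was called, lower by -1.48 (limma adjusted p = 0.0207), against 0.201% of all probe sets called lower and 0.295% called higher. This call was kept in 10 of 18 alternative fits. It was lost without control 24 h replicate 2, without control 4 h replicate 1 or 3 and without any 1 hmgn5 siRNA array, with adjusted p of 0.0515 to 0.0841 in those fits. H1f10 differed by -0.35 (limma adjusted p = 0.0871). Groups did not overlap for 1 histone probe set higher and 8 lower, against 7.53% and 8.35% of all probe sets.

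Factors that make and process histone mRNA gave no call. Of 28 such genes 26 were measured, among them Npat, the coactivator of clustered histone genes, and Slbp, which binds the stem-loop of their mRNAs. Npat read 8.52, 8.84 and 8.72 at 4 h, 8.36, 8.45 and 8.42 in control cells at 24 h, and 8.64, 8.52 and 8.69 with hmgn5 siRNA, differences of -0.28 over time and 0.21 for the siRNA. Slbp differed by 0.25 over time and by -0.00 for the siRNA. Nfyb, a subunit of the factor that binds CCAAT, read 7.74, 7.55 and 7.42 in control cells at 24 h and 7.996, 7.92 and 8.17 with hmgn5 siRNA, a difference of 0.46 with groups that did not overlap (limma unadjusted p = 0.00795). The list's median was -0.07 over time and 0.10 for the siRNA.

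Histone chaperones, which carry new histones to DNA, likewise had 0 called of 32 measured out of 36. Over time Nap1l5 differed by 0.36 (limma adjusted p = 0.0542) and Spty2d1, a chaperone of H3 and H4, by -0.31 (limma adjusted p = 0.0600). Asf1b, the copy of Asf1 tied to dividing cells, read 8.29, 8.04 and 8.28 at 4 h and 8.72, 8.57 and 9.08 at 24 h, a difference of 0.58 that did not pass. For the siRNA Nasp, which holds H3 and H4 in reserve, differed by 0.26 and Chaf1b, a subunit of the CAF-1 complex, by 0.25, and the list's median was 0.06. In the same cells a list of 10 cell cycle genes held exit genes together with the D-type cyclins Ccnd1 and Ccnd2. Of these 10, 2 were called higher over time and none lower, against 0.561% and 0.670% of all probe sets. Ccng2 rose by 1.24 (limma adjusted p = 0.0119) and Btg2 by 0.79 (limma adjusted p = 0.0169). Cdkn1a, an inhibitor of cyclin-dependent kinases, read 10.76, 10.50 and 10.80 at 4 h and 10.34, 10.28 and 10.40 at 24 h, groups that did not overlap, with a difference of -0.34 that was not called (limma adjusted p = 0.106). Histone variants whose symbols were not used to pick the histone probe sets gave no call among 11 measured of 18. H4f16, which is in that list, is also named on some of the histone probe sets counted here. H2aw differed by -0.68 over time, and Macroh2a1, which encodes macroH2A1, by -0.22 over time and 0.15 for the siRNA.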

How the data were processed

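The deposited table holds log2 expression per probe set, made by the authors with RMA and oligo per the submitters' processing notes, with no version given in the sources used here. RMA corrects background, quantile-normalizes arrays and summarises probes, and a shift common to most genes is removed by this. Values ran from 2.13 to 13.87, with array medians of 5.16 to 5.30. Symbols came from the platform annotation, which named 25335 probe sets, 1814 of them with several genes, and of the histone probe sets 33 had 1 symbol and 45 several, up to 13. In 3 pairs both probe sets held the same values, which leaves 75 distinct. The number of arrays limits the precision.

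Limma 3.58.1 in R 4.3.3 (lmFit and eBayes) was fitted on the log2 values of all 9 arrays with group means as the model, with 6 residual and 2.24 prior degrees of freedom. The fit was tested on simulated data. Probe sets given with every array were those called and, per class, the 2 with the smallest p in the time and siRNA comparisons, and context lists gave up to 4 genes a comparison. Others named were chosen after their values were seen, as was the division at the median level. The others were H2bc12, H2bc3, H2ac10, H4c12, H2ac21, H2az2, H2ax, H2aw and the further H2A, H2B, H3 and H3.3 probe sets. The members and lists were chosen with earlier results of these data known. H1f0 was not analysed here. Mcm2, Slbp and the marker Pdgfra (glia and fibroblasts) stand in more than 1 list.

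Alternatives were the replicate number as a block, only the 2 groups compared, a trend and robust prior, array weights, only probe sets with a symbol, no probe sets of the dimmest 33%, median centring, cyclic loess, and leaving out each array or both 24 h arrays numbered 3. Motifs were searched with Python 3.11.15.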

Additional observations from a re-analysis of the deposited data

How the results depend on the processing

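The number of histone probe sets called lower over time, 2 in the fit reported, was 1 with only the 2 groups compared, with each array centred on its median and without both 24 h arrays numbered 3. It was 4 with a trend and robust prior or with array weights and 6 with only symbol-bearing probe sets tested, where 1.99% of all probe sets were called lower, and 1 to 3 when 1 array was left out. Lower calls of hmgn5 siRNA at 24 h against control at 4 h went from 1 to 0 with only the 2 groups compared and without both arrays numbered 3, to 3 with array weights, to 2 with symbol-bearing probe sets and to 0 to 1 when 1 array was left out. For Hmgn5 the difference was -1.21 (limma adjusted p = 0.186) after median centring, -1.20 (0.121) after cyclic loess, -1.23 (0.586) without both arrays numbered 3 and -1.24 to -1.18 when 1 array was left out, and its probe set is among the dimmest 33% removed by that filter. With the replicate number as a block, Hmgn5 had -1.21 with an adjusted p of 0.132, 2 histone probe sets were called lower over time (H2bc4/H2bc8/H2bc6 and 17408015, both with an adjusted p of 0.0211), 0 for the siRNA and 1 in the remaining comparison. The cause of these shifts was not tested. Same-numbered arrays deviated together with r of -0.04, 0.02 and 0.12 between the control groups, of 0.14, 0.03 and 0.22 between the 24 h groups and of -0.05, 0.16 and 0.17 between control 4 h and hmgn5 siRNA. Between the 24 h groups each array correlated best with its own number, a hint of pairing from the data, but not every pair passed 0.1 and the labels name no shared culture or day, so the fit reported has no block. No alternative turned a called difference. Low signal limits 27 of the 78 histone probe sets, which lie among the dimmest 33%.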
